A study of Drosophila melanogaster with 2 samples.

Results

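The genes described here are 10 muscle and mesoderm genes of Drosophila melanogaster: twi, tin, bap, bin, Mef2, nau, kirre, sls, Mhc and Act57B. They were chosen by name, and a peak was counted for a gene when its summit lay in the gene or within 5 kb of either end. They are 10 of 13945 protein-coding genes on the 6 chromosome arms of the Ensembl BDGP6 annotation (dm6 coordinates). The peaks come from chromatin immunoprecipitation followed by sequencing (ChIP-seq) of Fer2, a basic helix-loop-helix (bHLH) transcription factor. The material was whole embryos aged 6 to 24 h from a transgenic line that stably carries Fer2 with green fluorescent protein (GFP) at its C terminus, and the antibody was against GFP. There are 2 biological replicates, numbered 2 and 3, which form 1 group with no untagged or untreated group beside them. Which promoter drives the tagged protein is not given in the sources used here, and muscle is 1 of many tissues in a whole embryo. The authors deposited a peak list for each replicate and a pooled list, each of 30000 peaks, and a list of 2862 peaks kept by their irreproducible discovery rate filter (called thresholded here). Peaks are ranked within a list by the authors' signal value, a caller score whose scale is not stated. It ran from 75.7 to 2295 in the thresholded list, with a median of 123. Read depth is unknown from these files, and with a single group no test between conditions was possible.

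Muscle of the fly embryo arises from mesoderm through a well-studied chain of regulators. Twist (twi), itself a bHLH factor, specifies mesoderm. Tinman (tin) and Bagpipe (bap), homeodomain factors, and Biniou (bin), a forkhead factor, direct dorsal, heart and gut muscle fates. Mef2 (Mef2), a MADS-box factor, switches on muscle differentiation genes, and Nautilus (nau) is the fly relative of the vertebrate bHLH factor MyoD. Kin of irre (kirre) is an adhesion protein of the founder myoblasts with which other myoblasts fuse. Sallimus (sls) is a titin-like spring of the sarcomere, Mhc encodes the muscle myosin heavy chain and Act57B encodes a muscle actin. Fer2 is known from dopamine neurons and clock neurons, and bHLH factors as a class bind the E-box, CANNTG.

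The sequences at the summits of 5 of the peaks discussed below are shown because they carry the locations on which the description turns. These sequences lie near the start sites of tin and sls, upstream of bin and nau, and inside kirre. Each is 101 bases of the plus strand of the RefSeq Release 6 genome (dm6), 50 bases either side of the summit. The tin window is chr3R:21378721-21378821, the sls window chr3L:2115821-2115921 and the bin window chr3L:6989251-6989351. The nau window is chr3R:23722982-23723082 and the kirre window chrX:3019749-3019849. The kirre window is that of rank 2739, the lowest-ranked of the 7 thresholded kirre peaks. Among the other kirre windows, not printed, only that of rank 1294 holds an E-box. Capitals mark an E-box. None of the 5 windows overlaps an annotated exon.
tin: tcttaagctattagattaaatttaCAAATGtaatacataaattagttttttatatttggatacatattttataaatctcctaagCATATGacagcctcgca
sls: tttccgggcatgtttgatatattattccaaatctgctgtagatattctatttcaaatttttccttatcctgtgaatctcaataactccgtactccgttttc
bin: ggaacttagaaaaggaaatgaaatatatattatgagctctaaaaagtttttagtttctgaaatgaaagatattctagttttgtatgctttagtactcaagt
nau: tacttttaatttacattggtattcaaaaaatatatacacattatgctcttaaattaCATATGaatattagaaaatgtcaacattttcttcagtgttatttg
kirre: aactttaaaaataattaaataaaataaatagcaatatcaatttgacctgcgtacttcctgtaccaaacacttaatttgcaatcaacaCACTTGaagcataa

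Of the 10 genes, 7 had at least 1 thresholded peak in range: Mef2, sls, kirre, nau, tin, bin and Act57B, in the order of their best rank. Over all protein-coding genes the share was 39.8%, and it was 36.7% for genes under 5 kb, 48.0% for genes of 5 to under 20 kb and 52.1% for longer genes. The genes twi, bap and Mhc had none. The count depends on the range: with 1 kb either side it was 4 (23.1% of protein-coding genes) and with gene bodies alone 2 (8.42%). The 7 genes held 18 thresholded peaks, of which 13 belonged to the long genes kirre and Mef2. Over the ranges of all 10 genes there were 0.251 thresholded peaks per 10 kb, against 0.214 over the 6 arms. For pooled peaks these densities were 2.41 and 2.24. In the pooled list 9 of the 10 genes had a peak, against 87.4% of protein-coding genes, a share close to that background. The counts were 9 in the replicate 2 list (87.4% of protein-coding genes) and 10 in the replicate 3 list (91.6%). All 18 thresholded peaks were overlapped by a peak of each replicate, as were 99.4% of all thresholded peaks. The thresholded list was derived from the replicate and pooled lists, so this overlap was largely fixed in advance.

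**Figure D1:**
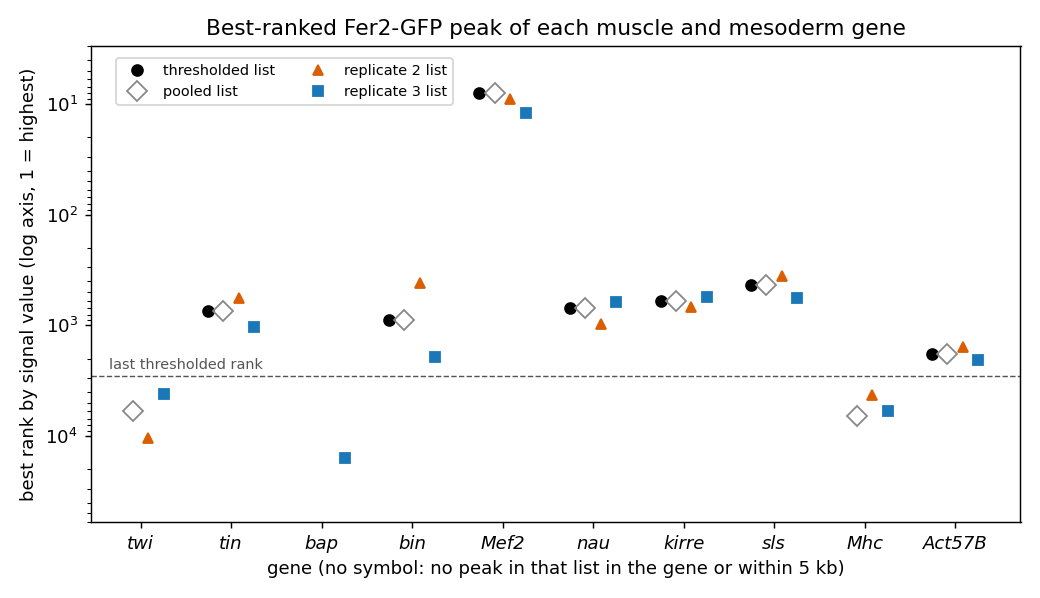
The best rank by signal value of any peak in the gene or within 5 kb is plotted for each gene on a log axis (1 is the highest), with a symbol for each of the 4 lists, and the dashed line is the last thresholded rank, 2862. Mef2 stands at rank 8, 6 genes lie between ranks 433 and 1804, and twi, bap and Mhc have no thresholded symbol.

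Among the genes that specify mesoderm and its subdivisions, tin carried a peak at its own start site. The tin gene (FBgn0004110) is at 3R 21378977 to 21381970 on the plus strand. Its peak (3R 21378685 to 21378862, rank 745, signal value 182) had its summit 206 bp upstream of the single annotated transcription start site (TSS). The same site had a signal value of 95.6 in replicate 2 (rank 570) and 84.3 in replicate 3 (rank 1032), with summits 42 bp apart. It is the strongest of 4 pooled peaks in the range. The next, at rank 7489, lay 33 bp upstream of a TSS of mod(mdg4), the neighbouring gene, which encodes a chromatin protein. As printed above, the tin window holds CAAATG with its first base 26 bp to the left of the summit and CATATG with its first base 34 bp to the right.

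The gene bin (FBgn0045759, 3L 6990622 to 6994447, plus strand) had a peak upstream of its start rather than at it. The peak (3L 6989116 to 6989485, rank 890, signal value 166) lay in intergenic DNA 1321 bp upstream of the TSS, and bin was the gene with the nearest protein-coding TSS. The replicates placed it differently in their own lists. Its signal value was 113 in replicate 2 (rank 412) and 56.7 in replicate 3 (rank 1926). The summits of the replicates were nevertheless 7 bp apart. The next pooled peak in range, at rank 7527, lay 6448 bp downstream of the bin TSS and was nearest to the neighbour Mp. Another, at rank 7654, lay 1115 bp upstream of bin. The replicate 3 list had the Mp-side site at rank 4262, and the replicate 2 list had the upstream one at rank 7723. The bin window holds no E-box.

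The tin neighbour bap (FBgn0004862, 3R 21388880 to 21390449) had no peak in range in the thresholded, pooled or replicate 2 list. The replicate 3 list alone gave 4 peaks, at ranks 15815, 19939, 23026 and 28774, with −log10 q-values from 0.178 to 0.503. The one nearest to the bap start, 380 bp upstream, had a signal value of 13.7. The lowest value in that list is 10.9, so these were among its weaker calls. The nearest thresholded peak to the bap TSS, 10.1 kb away, was the tin peak.

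The gene twi (FBgn0003900) spans 2R 22985374 to 23048325 in this annotation because 1 of its 3 transcripts starts far upstream of the other 2. It had 6 pooled peaks and no thresholded peak. The best, at rank 5886 (signal value 44.4), was nearest to CG42741, 168 bp upstream of that gene. It was at rank 10354 in replicate 2 and rank 4181 in replicate 3. At the pair of clustered start sites the pooled list had a single weak peak, 65 bp downstream of the first of them, at rank 29409 (signal value 15.6). The nearest thresholded peak lay 18.1 kb from a twi TSS.

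The differentiation regulator Mef2 had the highest peak of the 10 genes, but that peak was nearer to other genes. Mef2 (FBgn0011656) is at 2R 9913496 to 9958858 on the minus strand, with 3 start sites. The peak (2R 9959712 to 9960124) ranked 8 in the thresholded list with a signal value of 1166. In replicate 2 it ranked 9 (signal value 528) and in replicate 3 it ranked 12 (signal value 641), with summits 10 bp apart. The summit was 1060 bp upstream of the outermost Mef2 TSS. It was 160 bp upstream of a TSS of Pal1, which encodes a peptide-processing lyase, and 186 bp upstream of a TSS of Pdrg1. At that outermost start the nearest peak was 128 bp upstream, at rank 3911 of the pooled list (signal value 59.7), below the threshold.

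Inside Mef2 there were 5 further thresholded peaks, 4 in introns and 1 in a 5' UTR of an isoform. The highest (rank 976, signal value 156, 2R 9949088 to 9949294) was 4435 bp upstream of the middle start site. Its signal value was 47.1 in replicate 2 (rank 1964) and 110.0 in replicate 3 (rank 670). Close beside it were the peaks of rank 2642 and rank 2431, 4947 and 5605 bp upstream of the same TSS, so that 3 of the 5 fell in a single intronic cluster. The replicates differed most at the peak of rank 2642, which was at rank 5420 in replicate 2 and rank 1500 in replicate 3. The 5' UTR peak (rank 1634, signal value 113) was 1794 bp downstream of the middle start site. Its ranks in the replicates were 1779 and 1703, and its summits lay 9 bp apart. The last, of rank 2660, was in an intron 6382 bp upstream of the innermost start site and ranked 3386 in replicate 2 and 3043 in replicate 3. In all, the Mef2 range held 6 thresholded and 32 pooled summits. Of all protein-coding genes, 0.179% had 6 or more thresholded summits in range and 0.516% had 32 or more pooled ones. In density, Mef2 had 1.08 thresholded summits per 10 kb, against 0.214 over the 6 arms.

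The gene nau (FBgn0002922, 3R 23712814 to 23718357, minus strand) was counted as having a peak through a neighbour's promoter. The peak (3R 23722929 to 23723121, rank 692, signal value 189) was 4675 bp upstream of nau and 299 bp upstream of CG10365. Its signal value was 71.3 in replicate 2 (rank 979) and 116 in replicate 3 (rank 615), with summits 15 bp apart. Its window, printed above, has CATATG with its first base 6 bp to the right of the summit. In the gene itself the pooled list had an intronic peak at rank 3682 (signal value 62.1). It ranked 2402 in replicate 3, while the replicate 2 list had a summit close by at rank 13463. At the nau start, a peak 57 bp upstream was in the replicate 2 list at rank 17642 and had no counterpart within 500 bp of that TSS in the pooled list, where the nearest summit was 3757 bp away.

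**Figure D2:**
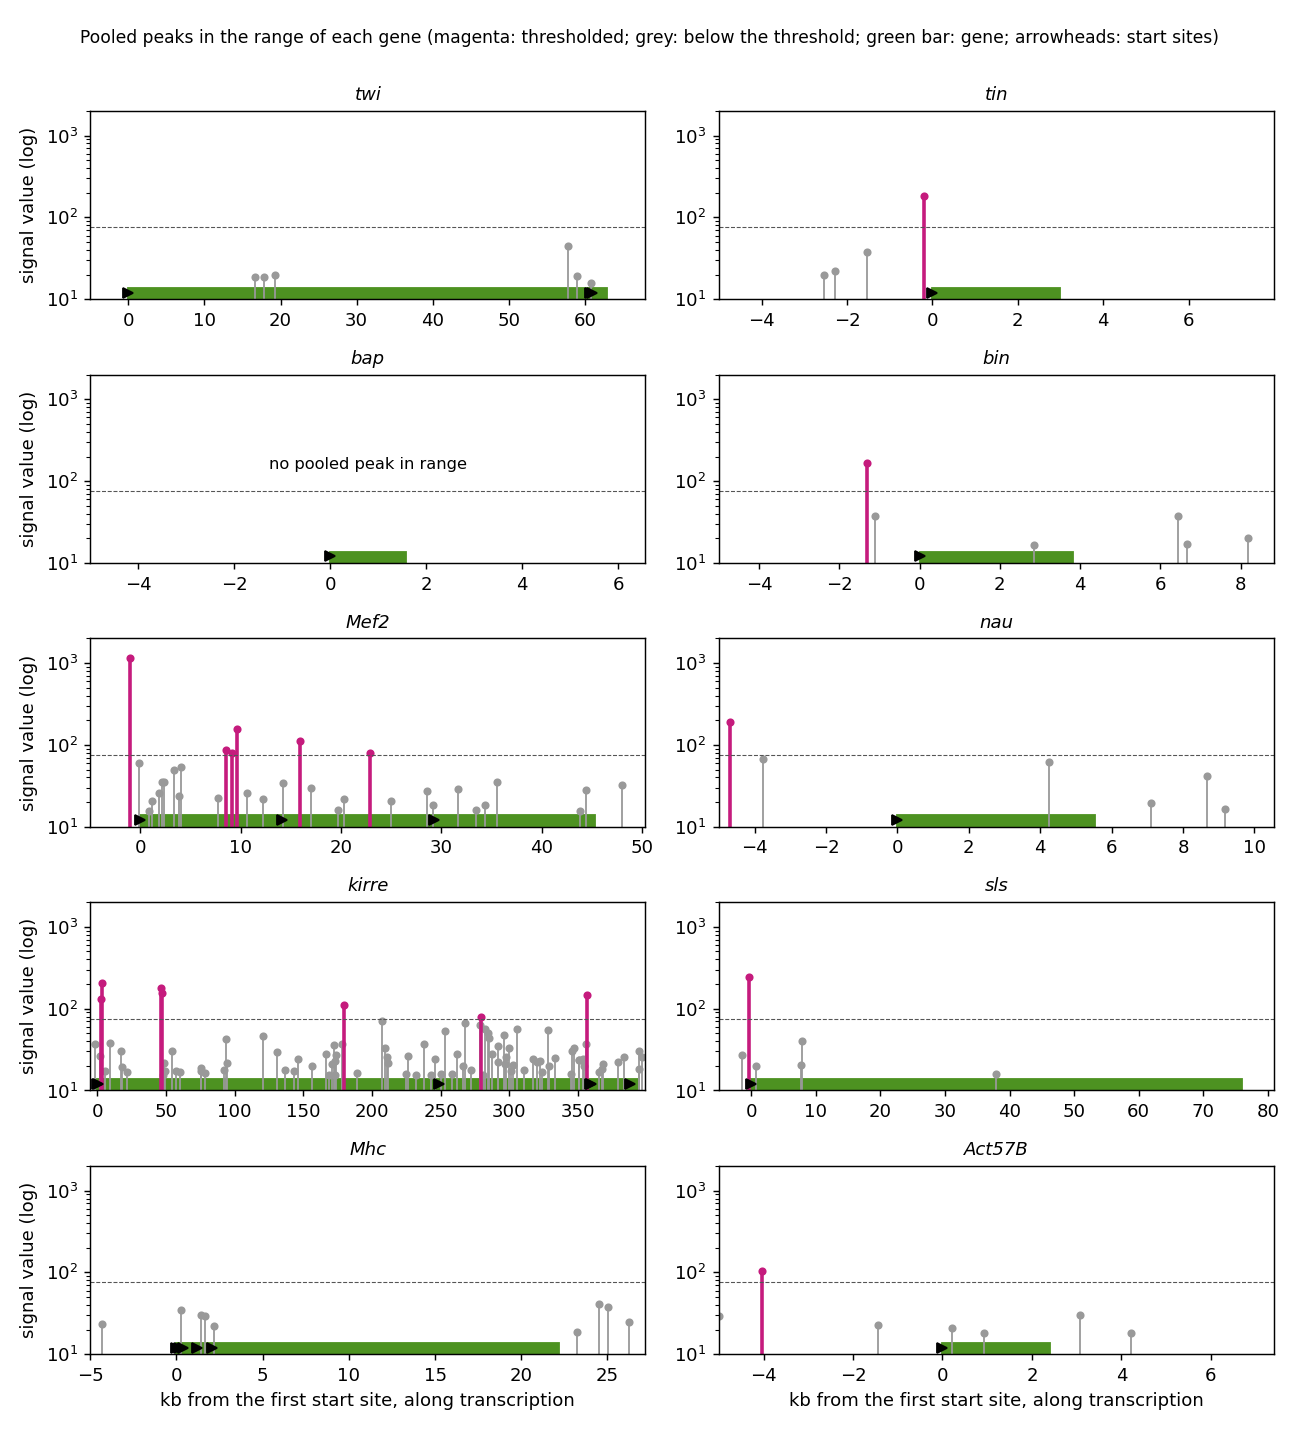
Each panel shows 1 gene with the summits of pooled peaks in the gene or within 5 kb, as distance in kb from the gene's outermost start site along transcription, against signal value on a log axis. Magenta stems are thresholded peaks, grey stems pooled peaks below the threshold, green bars the gene, arrowheads the start sites, and the dashed line the lowest thresholded signal value, 75.7; at tin and sls the magenta stem is at the start site, and at bin, nau and Act57B it is upstream.

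The fusion gene kirre held the most peaks, and it is the longest of the 10. The gene (FBgn0028369) covers X 2740384 to 3134532, 394 kb on the plus strand, with 6 start sites, and 21 other protein-coding genes lie inside it. It had 7 thresholded and 97 pooled summits in range. That is 0.173 thresholded summits per 10 kb, slightly below the 0.214 over the 6 arms. Of all protein-coding genes 0.0932% had 7 or more thresholded summits in range, and 1, kirre itself, had 97 or more pooled ones. For 5 of the 7 the nearest protein-coding TSS was that of another gene. The highest, at rank 606 (signal value 204, X 2744124 to 2744361), was 159 bp upstream of Syx4, a syntaxin gene, and the peak of rank 1294 was 318 bp upstream of the same gene. The peak of rank 1665 was 159 bp downstream of a TSS of CG3588. Those of rank 751 (X 2786670 to 2786873, signal value 181) and rank 1000 (X 2787247 to 2787616, signal value 153) were nearest to CG32795. They lay 2563 and 1890 bp downstream of its TSS.

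The other 2 kirre peaks were nearest to kirre start sites. The peak of rank 1077 (X 3097139 to 3097306, signal value 146) was in an intron 2343 bp upstream of a pair of start sites. Its signal value was 50.4 in replicate 2 (rank 1747) and 93.1 in replicate 3 (rank 880), with summits 60 bp apart. The peak of rank 2739 (X 3019614 to 3019983, signal value 78.4) was close to the end of the thresholded list and 30748 bp downstream of the nearest start site. It ranked 2865 in replicate 2 and 2872 in replicate 3, and the summits of the replicates were 3 bp apart. They lay 77 and 74 bp from the pooled summit, outside the window printed above. That window, centred on the pooled summit, holds CACTTG and a MEF2 site. The kirre peaks were not ordered alike in the replicates. The peak of rank 1000 was the highest of the 7 in replicate 2 (signal value 86.7) and had 65.8 in replicate 3. The peak of rank 751 was the highest in replicate 3 (121) and had 55.9 in replicate 2.

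Of the 3 sarcomere genes, sls carried a peak at its own start site. The gene (FBgn0086906) is at 3L 2039681 to 2115611 on the minus strand, and all 13 of its annotated transcripts start at 1 TSS. The peak (3L 2115772 to 2116001, rank 433, signal value 243) had its summit 260 bp upstream of that TSS. The signal value was 120.4 in replicate 2 (rank 355) and 121 in replicate 3 (rank 564), with summits 53 bp apart. In the rest of the 75.9 kb gene, pooled peaks were few and weak: the best was in an intron 7873 bp downstream of the TSS at rank 6755 (signal value 40.4). That intronic site had rank 2637 in replicate 2, while the replicate 3 list had no summit in the sls range nearer to it than the one 703 bp downstream of the TSS. The sls window holds no E-box.

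Mhc (FBgn0264695, 2L 16766566 to 16788766, plus strand) had 9 pooled peaks and no thresholded peak. Pooled peaks lay at its 5 start sites, the highest 70 bp from the nearest, at rank 8364 (signal value 34.9). Others lay 225, 388 and 102 bp from a start site, at ranks 10498, 10703 and 17126. These start-site calls were weak, with −log10 q-values from 0.536 to 1.65. The site of pooled rank 8364 ranked 7997 in replicate 2, 28 bp from a start site. The best replicate 2 peak in range (rank 4233) was also in Mhc, 324 bp downstream of another start site. The nearest replicate 3 summit to the start site at which 14 Mhc transcripts begin was 1492 bp away. Replicate 3 had weak peaks at other Mhc start sites, 385 bp upstream of the nearest (rank 13249) and 96 bp downstream (rank 15975). The best pooled peak in range, at rank 6612, was 369 bp upstream of the neighbour Cyt-b5-r, past the 3' end of Mhc. The nearest thresholded peak was 38.6 kb from an Mhc TSS.

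Act57B (FBgn0000044, 2R 20944021 to 20946431, plus strand) had a thresholded peak in the intergenic DNA before it. The peak (2R 20939810 to 20940179, rank 1804, signal value 105) was 4026 bp upstream of the TSS. Act57B was the gene with the nearest protein-coding TSS. Its signal value was 53.4 in replicate 2 (rank 1581) and 54.7 in replicate 3 (rank 2042), with summits 40 bp apart. An E-box begins at the summit base. At the gene's own start the pooled list had a weak peak 207 bp downstream, at rank 19135 (signal value 20.7).

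**Figure D3:**
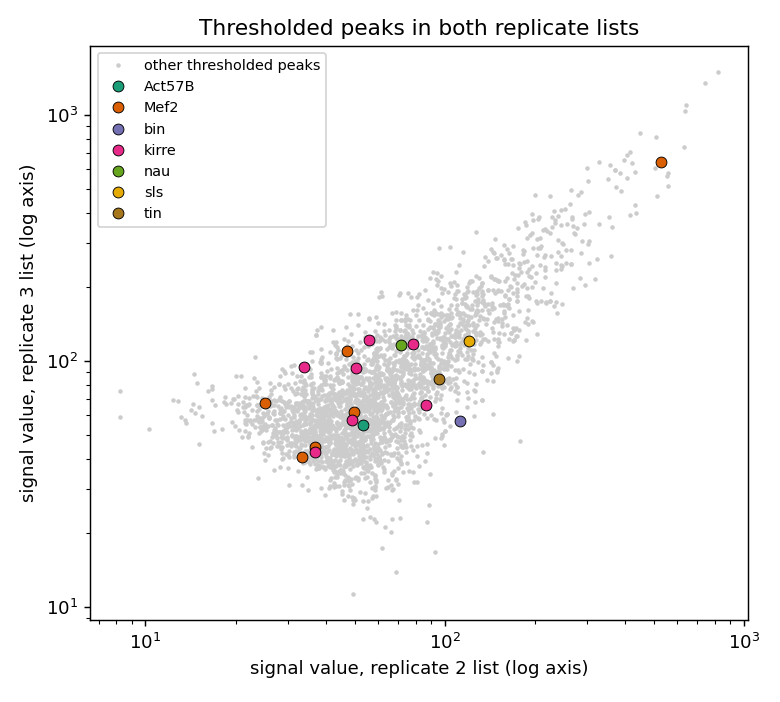
Signal values of thresholded peaks are plotted for the replicate 2 list (x, log axis) against the replicate 3 list (y, log axis), taking the highest overlapping peak of each. Grey points are other thresholded peaks and coloured points the 18 peaks in range of the named genes; most lie within the grey cloud, the Mef2 peak of rank 8 is at 528 and 641, and the bin peak is toward the replicate 2 side at 113 and 56.7.

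Across the 18 peaks the replicates placed their summits a median of 30 bp apart, from 1 to 75 bp. This distance was not taken over all thresholded peaks, so it has no background beside it. When each replicate list was limited to its 2862 highest peaks, 13 of the 18 were overlapped in both, against 73.0% of all thresholded peaks, a share close to theirs. The peaks lost were the Mef2 peaks of rank 2431, 2642 and 2660 and the kirre peaks of rank 1294 and 2739. Of the 18 peaks, 11 ranked in the higher 1431 of the thresholded list, which are 50% of it. Their median rank was 1039, where position in the list alone gives 1431.5, and the difference was not tested.

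In number, fewer of the 18 peaks lay at the genes' own start sites than in introns or at neighbouring promoters. The like split between own and neighbouring start sites was not counted over all genes. Of the 18 summits, 7 were within 500 bp of some TSS, a location that held 58.4% of all thresholded summits, but 2, those at tin and sls, lay that close to a start site of the gene they were counted for. The other 5 were at Pal1 and Pdrg1, at CG10365, at Syx4 (2 peaks) and at CG3588. Introns away from a TSS held 8 of the 18, all in kirre and Mef2, against 30.3% of all thresholded summits. Intergenic DNA held 2, at bin and Act57B (9.33% of all), and a 5' UTR held 1 (0.384% of all). Over protein-coding genes, 15.9% had a thresholded summit within 500 bp of their own TSS. Of these 10 genes 2 did, a share close to that background. In the pooled list 6 of the 10 did, against 49.6%, as weaker peaks at Mef2, Mhc, Act57B and twi were counted. Mef2 and kirre, which hold most of the peaks, are long genes with much intron, and the part of this in the counts was not tested.

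Short words known from several factors were looked for on either strand up to 50 bp from each summit. CANNTG was near 7 of the 18 summits, against 32.4% of all thresholded peaks. CATATG, the E-box form at tin and nau, was near 2 of 18 (4.3% of all), and CAGCTG near 0 of 18 (3.07% of all). TAATTA, a homeodomain core, was near 2 of 18 (11.5%), both in kirre. A GATA site (GATA after A or T and before A or G) was near 4 of 18 (23.1%), at Mef2, Act57B and kirre. A MEF2 site was near 2 of 18 (8.63%), both in kirre, at ranks 1000 and 2739. CATATG and CAGCTG are forms of CANNTG, and a MEF2 site can overlap TAATTA, as at rank 2739. With 18 peaks each count is small, and a match in the window says nothing about which protein is bound. The summits were AT-rich like those of the list as a whole: median GC content within 50 bp was 30.2% (range 20.8 to 56.4) at the 18 peaks and 30.7% at all thresholded peaks.

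Other muscle and mesoderm genes, in 5 lists by role, had a thresholded peak in 38 of 86 cases (44.2%), against 39.8% of all protein-coding genes. In 15 of the 38 the listed gene was the nearest to its own best peak, a share not counted over all genes. Of the 86 genes, 9 had a thresholded summit within 500 bp of their own TSS, against 15.9% of protein-coding genes. Among regulators of mesoderm and muscle identity, 11 of 25 had a peak. The highest were at org-1, a T-box factor (rank 312, 347 bp upstream of its TSS), zfh1, a zinc finger and homeodomain factor (rank 437, intron), and Poxm, a paired-domain factor (rank 695, 437 bp upstream). The mesoderm factor sna and the FGF receptor gene htl had none.

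Heart factors had a thresholded peak in 2 of 9 cases, and in both the peak was at a neighbour's promoter. The tup peak (rank 330) was 121 bp from a TSS of CG10602, and the Hand peak (rank 2283) was 116 bp from a TSS of CYLD. The GATA factor gene pnr and the nuclear receptor gene svp had none. Of the fusion genes other than kirre, 5 of 13 had a peak. They were led by siz (rank 316), Ced-12 (rank 454), WASp (rank 1040) and mbc (rank 1060), and each of these summits was nearer to another gene. Those nearest genes were CG10584, ThrRS, CG1523 and Nup98-96. The mbc summit lay 49 bp from a TSS of Nup98-96 but was also at the promoter of mbc, 193 bp upstream of its TSS. Of the 13 fusion genes, 3 had a thresholded summit within 500 bp of their own TSS, against 15.9% of protein-coding genes. In the other lists this held for 2 of 25 identity genes, 0 of 9 heart factors, 3 of 29 sarcomere genes and 1 of 10 attachment genes. The adhesion genes rst and sns had none.

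Sarcomere genes other than the 3 above had a peak in 12 of 29 cases. The highest were in range of Tm1, a tropomyosin gene (rank 39), but 130 bp from a TSS of Cp190, an insulator protein gene. That of Strn-Mlck (rank 115) was 94 bp from a TSS of CG8320. The Msp300 peak (rank 145), 629 bp upstream of a TSS of this nesprin gene, was nearest to Msp300 itself, while the Mlp84B peak (rank 1026) was nearest to Alh. The myosin light chain genes Mlc1 and Mlc2 had none. Of 10 muscle attachment genes, 8 had a thresholded peak, against 39.8% of all protein-coding genes and 52.1% of those of 20 kb or longer. They were led by stck (rank 482, intergenic, 1259 bp upstream), rhea, the talin gene (rank 552, intron), sr, a tendon cell factor (rank 774, intron), and mys, an integrin subunit gene (rank 1440). The mys summit was nearest to fs(1)h. Tig and Ilk had none. In 3 of these 8 the listed gene was the nearest, again a count without a background. The integrin genes among the 8 are also used outside muscle.

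**Figure D4:**
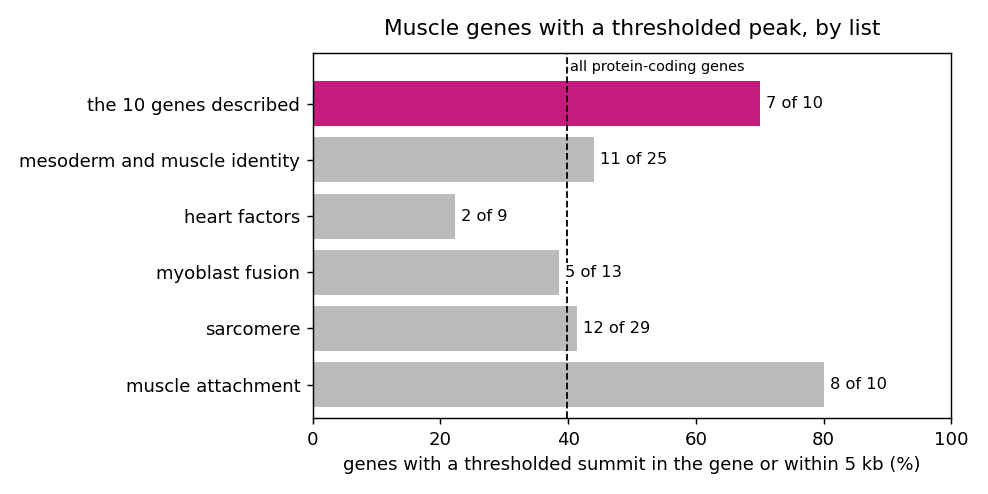
Bars give the share of genes that have a thresholded peak in range, for the 10 genes and for 5 further lists by role, with counts beside them, and the dashed line is the share over all protein-coding genes, 39.8%. The 10 genes (7 of 10) and the attachment genes (8 of 10) lie above the line, the heart factors (2 of 9) lie below it, and the identity, fusion and sarcomere lists lie close to it.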

How the data were processed

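ChIP-seq peaks of Fer2-GFP were taken from the 4 deposited lists on dm6. Per the deposited text files, each replicate and the pool of their alignments were called against the same control alignment, and the thresholded list was derived from the other 3. That control is not analysed here. No source used here names the caller. Sonication was to 200 to 800 bp, per the labels. The signal value is the authors' caller score, as deposited, and served to rank the peaks of each list. The −log10 q-values, as deposited, describe weak calls only.

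A summit is the start column plus the summit column. Genes are those of Ensembl release 115 without transposable elements. A summit up to 500 bp from any TSS was called promoter. The remaining ones were placed by the first that applied of 5' UTR, coding exon, 3' UTR, exon of a non-coding transcript, intron and intergenic DNA. A summit can count for several genes, and one counted for a gene need not act on it. Sequence was read from the RefSeq Release 6 genome, whose arm lengths hold every peak. Replicates were matched by an overlap of at least 1 bp.

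The genes and lists were chosen with earlier results of these data known, so counts stand beside their background without a test. Named genes are the 10, the gene with the nearest protein-coding TSS to each of their thresholded peaks, and from each further list up to 4 genes with the highest peak and up to 2 without. For 1 gene of that rule the result is left out here. Pdrg1, mod(mdg4), CG42741, Cyt-b5-r, Mp and the nearest genes to peaks of the further lists were named after their values were seen. Of 88 entries in the further lists, 86 were found under the symbol given. Counting and word search were first tested on simulated data. Python 3.11.15, numpy 2.4.6 and pandas 2.3.3 were used.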

Additional observations from a re-analysis of the deposited data

How the results depend on the processing

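The number of genes with a thresholded peak depended on the range. It was 7 within 5 kb, 4 within 1 kb (23.1% of protein-coding genes) and 2, kirre and Mef2, with gene bodies only (8.42%). Giving each peak to the gene with the nearest TSS left 11 of the 18 peaks and 6 genes (16.1% of protein-coding genes), without nau. The higher-ranked 1431 peaks also left 11 peaks and 6 genes (25.4%), without Act57B. Leaving out a replicate, with the 2862 highest peaks of the other list, gave 7 to 7 genes, the same 7 of 7 each time (39.0% of protein-coding genes without replicate 3 and 40.3% without replicate 2), and 15 to 17 peaks. Without replicate 2, nau had 2 peaks, and without replicate 3, sls had 2. For the 86 other muscle genes the count of 38 also changed, given here with the share of protein-coding genes in brackets. It became 23 within 1 kb (23.1%), 14 with gene bodies only (8.42%) and 21 by nearest TSS (16.1%). With the higher-ranked 1431 peaks it was 22 (25.4%). It was 37 without replicate 3 (39.0%) and 40 without replicate 2 (40.3%). Summits at a TSS rose from 2 to 7 when any TSS counted. Of the 18 peaks, 7 had an E-box within 50 bp, 3 within 25 bp and 14 in the whole peak. Among the 11 peaks in the higher-ranked 1431, 3 had an E-box within 50 bp. The share over all thresholded peaks was counted at 50 bp alone (32.4%), so the other E-box counts have no background beside them. These alternatives change the window, the length of the list or the rule that gives a peak to a gene. The remaining 23 alternatives of the main counts, those leaving out a replicate included, stayed within 1.5 times. No paired analysis was possible because the 2 replicates form 1 group. Depth is unknown, so a missing peak does not show that Fer2 is absent.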
